A study of Mus musculus with 4 samples.

Results

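The 8 genes described here are Ccr7, Ccl22, Ccl17, Fscn1, Il12b, Cacnb3, Cd40 and Il15, which are widely used together as markers of mature migratory dendritic cells. They were taken by symbol from the 32285 genes counted in each section. A dendritic cell that has taken up antigen matures, gains the receptor Ccr7 and leaves its tissue along lymphatic vessels toward the chemokines Ccl19 and Ccl21a, and in tumors a share of such cells stays behind. On the way it makes the chemokines Ccl22 and Ccl17, which call in T cells that carry Ccr4, it bundles actin with fascin (Fscn1) into long processes, and it meets T cells with Cd40, interleukin 12 and interleukin 15.

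The measurements came from 4 fresh frozen Visium sections, each of 1 tumor grown under the skin of a female F1 mouse from the C57BL/6-derived colon carcinoma line MC38. The hosts were C57BL/6J x CC075/UncJ (CC075F1, 2 sections) and C57BL/6J x CC080/TauUncJ (CC080F1, 2 sections). Mice were 8 to 12 weeks old at injection. Every mouse received a single 200 µg dose of the isotype control antibody 2A3 when its tumor measured 75 to 110 mm3, and was killed 48 hours after that dose. No anti-PD-1 treated section was analysed here. Visium captures polyadenylated RNA on barcoded spots, each of which can lie under several cells, and counts molecules by unique molecular identifiers (UMIs). A spot with fewer cells of a type and a spot with less RNA per cell therefore cannot be told apart. The sections held 2710 to 3276 spots over tissue, with a median of 31139 to 41740 UMIs per spot. The panleukocyte gene Ptprc was found in 63.2% to 68.3% of spots, and 23 spots, all in CC075F1 replicate 2 and all at the tissue edge, held more than 1% of skin, muscle or fat markers. Levels are given as CPM, a gene's UMIs relative to all UMIs of the section or of the spots named, on the usual CPM scale.

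Ccl22 and Ccl17 lie in one chemokine gene cluster on mouse chromosome 8, with Cx3cl1 between them, and because they had the highest pooled odds ratio of sharing a spot among the members, the sequence just upstream of each is shown. Ccl22 spans chr8:94745590-94751699 and Ccl17 chr8:94810453-94812036 (GRCm38, both on the plus strand, protein coding), with 58754 bases between them. The sequences are from RefSeq (GRCm38.p6), run 5′ to 3′ and end at the base before the gene start. Capitals mark a match to the STAT6-type motif TTCNNNNGAA, the palindrome bound by the transcription factor of interleukin 4 signaling.
Ccl22, chr8:94745434-94745589, plus strand: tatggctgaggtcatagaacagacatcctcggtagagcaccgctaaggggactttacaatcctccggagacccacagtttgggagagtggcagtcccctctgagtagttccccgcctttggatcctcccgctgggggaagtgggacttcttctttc
Ccl17, chr8:94810203-94810452, plus strand: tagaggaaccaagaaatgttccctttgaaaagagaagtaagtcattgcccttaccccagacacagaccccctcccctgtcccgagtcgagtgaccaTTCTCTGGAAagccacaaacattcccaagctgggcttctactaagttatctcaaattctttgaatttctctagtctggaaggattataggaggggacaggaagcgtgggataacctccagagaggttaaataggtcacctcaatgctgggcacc
The match in Ccl17 begins 154 bases before the gene start. Among 32851 RefSeq promoters searched on both strands over up to 250 bases before the start, 5.85% held this motif. The NF-kB consensus was found in 7.25% of promoters, GGAANNGAAA in 2.30%, the AP-1 motif TGANTCA in 6.75% and TATAAA in 12.4%, and none of these was found in the Ccl22 or Ccl17 windows. Ccl22 had no match to any of the 5 motifs, which says only that these letters were not in that window. The Ccl22 window is shorter than the 250 bases of Ccl17, so its lack of matches cannot be set directly against these shares.

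The remaining members lie apart from this pair. Ccr7 is at chr11:99144196-99155077 on the minus strand, Il12b at chr11:44400063-44414033 on the plus strand, Fscn1 at chr5:142960343-142973185 on the plus strand, Cacnb3 at chr15:98630840-98644529 on the plus strand and Cd40 at chr2:165055627-165072948 on the plus strand. Il15 is on chromosome 8 as well, at chr8:82331632-82403222 on the minus strand. All 8 are protein coding.

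Ccr7, the receptor that leads mature dendritic cells and naive T cells to lymph nodes, was sparse in every section. It held 88 and 210 UMIs in CC075F1 replicates 1 and 2 and 125 and 367 UMIs in CC080F1 replicates 1 and 2. The levels were 1.07 and 1.43 CPM in CC075F1 and 1.34 and 3.26 CPM in CC080F1. CC080F1 replicate 2 thus stood above the other sections, and the other CC080F1 section lay between the CC075F1 sections. The strain means were 1.25 ± 0.260 CPM for CC075F1 and 2.30 ± 1.36 CPM for CC080F1 (SD, n = 2 each), so the spread in CC080F1 exceeded the difference.

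Ccl22 is a ligand of Ccr4, a receptor of regulatory and type 2 helper T cells. It held 188 and 184 UMIs in the CC075F1 sections and 90 and 229 UMIs in the CC080F1 sections, at 2.28, 1.26, 0.962 and 2.03 CPM in that order. Its levels in the strains overlapped, with means of 1.77 ± 0.721 and 1.50 ± 0.757 CPM. Ccl17, the second ligand of Ccr4, had 384 and 204 UMIs in CC075F1 replicates 1 and 2, against 211 and 228 in the other strain. Its level was 4.65 CPM in CC075F1 replicate 1 and 1.39, 2.25 and 2.02 CPM in CC075F1 replicate 2 and the CC080F1 sections. A single CC075F1 section was therefore high for Ccl17, while the other was the lowest of the 4.

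Fscn1 encodes fascin, which bundles actin filaments in mature dendritic cells and also in motile tumor cells. Its UMIs numbered 13665 and 11910 in CC075F1, against 21534 and 19124 for CC080F1, or 165, 81.3, 230 and 170 CPM. Every CC080F1 section lay above every CC075F1 section, with means of 200 ± 42.7 and 123 ± 59.5 CPM (SD, n = 2 each). An exact two-sided permutation of the sections gave p = 0.33, and with n = 2 per strain no lower value is possible. Cacnb3, a beta subunit of voltage-gated calcium channels, was measured at 15.5 and 6.51 CPM in CC075F1 and at 18.6 and 14.1 CPM in CC080F1. For both genes CC075F1 replicate 2 was the lowest section.

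Il12b, the p40 subunit shared by interleukins 12 and 23, was at the limit of detection. It had 1 and 3 UMIs in the CC075F1 sections and 2 UMIs in each CC080F1 section, none above 3 counts, the upper limit that an observed count of 0 allows. No fold or test is given for it, and its difference between sections was not detectable at this depth. Il15, which sustains natural killer and memory CD8 T cells, was measured at 16.2 and 12.3 CPM in CC075F1 and 12.7 and 13.2 CPM in CC080F1. Cd40, the receptor through which helper T cells license dendritic cells, was measured at 10.3 and 8.78 CPM in CC075F1 and 8.70 and 8.93 CPM in CC080F1. The section values of Cd40 and Il15 overlapped between strains.

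**Figure D1:**
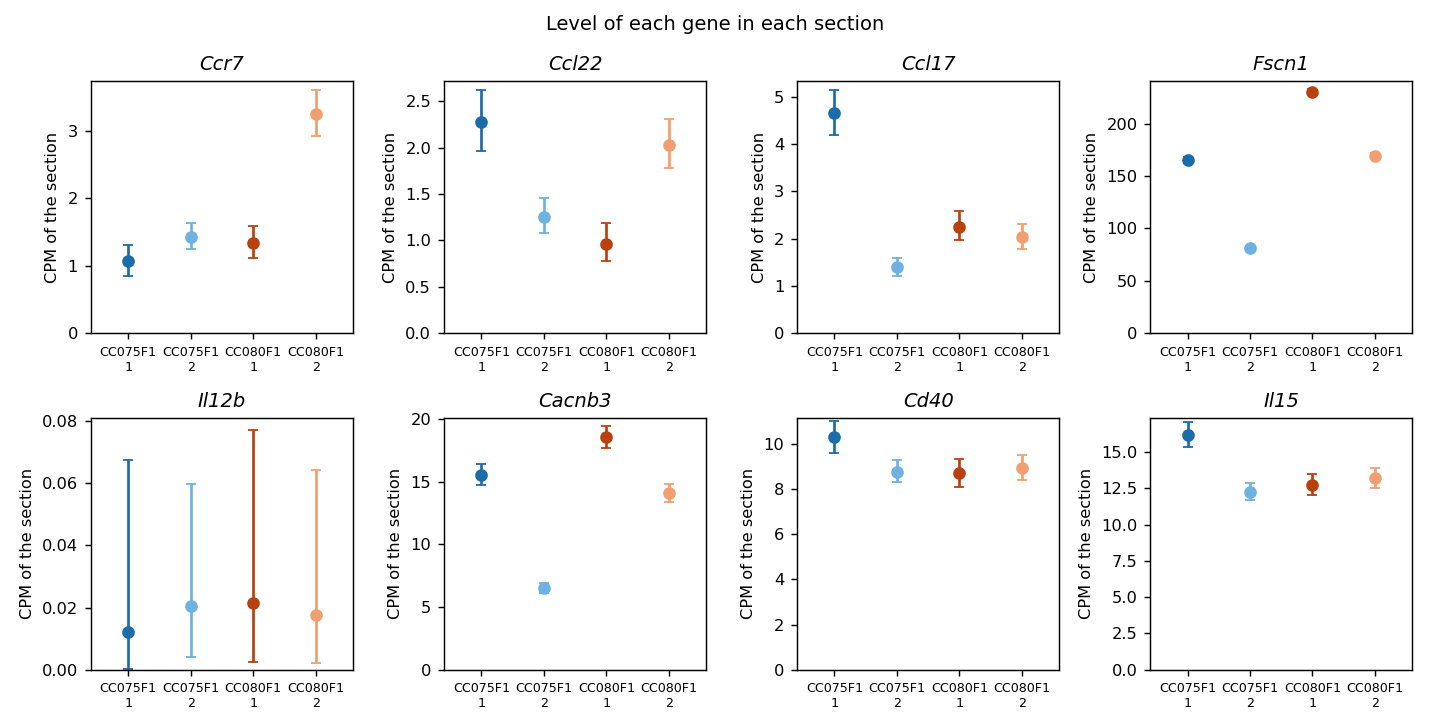
Level of each of the 8 genes (one panel each) in the 4 sections, as CPM of the section on the y axis from 0. Points are sections, bars are exact 95% Poisson intervals for counting error only, and colors mark the section. CC080F1 replicate 2 is the high section for Ccr7 at 3.26 CPM and CC075F1 replicate 1 for Ccl17 at 4.65 CPM, while Fscn1 is higher in both CC080F1 sections than in either CC075F1 section.

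The strains were compared across all genes by edgeR's quasi-likelihood test on the UMIs summed per section. Of the 7 members with enough counts to be tested (Il12b was too sparse), 0 passed a Benjamini-Hochberg adjusted p of 0.05, and 0.0899% of all 15572 genes passed. None had an unadjusted edgeR p under 0.05, where 5.43% of all genes did, and DESeq2 and limma-voom called 0 as well. The log2 fold changes (CC075F1 over CC080F1) were -0.53 for Ccr7, 0.47 for Ccl22, 0.69 for Ccl17, -0.44 for Fscn1, -0.33 for Cacnb3, 0.43 for Cd40 and 0.43 for Il15, with adjusted p between 0.83 and 0.85. These fold changes use edgeR's scaling of the section totals (TMM). For every member they lie further toward CC075F1 than the ratio of the mean CPM levels. Cd40 and Il15 in particular differed less between strains in CPM. Of these log2 fold changes 4 rested on a single section. Ccr7 became higher in CC075F1 without CC080F1 replicate 2 (0.35), and the higher level of Ccl17 was gone without CC075F1 replicate 1 (-0.03), as was that of Ccl22 without CC080F1 replicate 1 (-0.01). The lower level of Cacnb3 in CC075F1 shrank to -0.01 without CC075F1 replicate 2.

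The share of spots with at least 1 UMI placed the members in different classes. Ccr7 was found in 2.84% and 5.16% of CC075F1 spots and in 4.02% and 8.76% of CC080F1 spots. Ccl22 was found in 5.42% and 3.75% of CC075F1 spots and in 2.66% and 5.26% of CC080F1 spots, and Ccl17 in 8.89%, 3.75%, 5.71% and 5.45% in the same order. Exact 95% binomial intervals for the Ccr7 shares ran from 2.25% to 3.54% in CC075F1 replicate 1 and from 7.80% to 9.80% in CC080F1 replicate 2, and they cover counting error only. These 3 genes were thus found in a small minority of spots in all 4 sections.

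The other members were spread widely. Cd40 was found in 24.3% to 29.5% of spots, Il15 in 32.8% to 38.9% and Cacnb3 in 23.9% to 45.2%. Fscn1 was found in 95.3% and 92.9% of CC075F1 spots and in 99.5% and 96.0% of CC080F1 spots. Among spots without a single Ptprc UMI, Fscn1 was still found in 90.6% to 99.0%, so in these sections it did not mark a minority of leukocyte-bearing spots.

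Spots were then thinned to 10000 UMIs each, as deeper spots hold more of every gene. The 2549, 3174, 2734 and 2969 spots with at least that depth were kept. At this depth Ccr7 was found in 1.14% and 1.76% of CC075F1 spots and in 1.32% and 3.17% of CC080F1 spots, and Fscn1 in 80.5%, 55.6%, 89.3% and 80.8%. Thinned shares of Ccr7, Ccl22, Ccl17 and Cd40 were lower in Ptprc-free than in Ptprc-positive spots in each of the 4 sections. For Ccr7 the thinned shares were 0.657% against 1.35%, 1.57% against 1.84%, 0.921% against 1.55% and 2.43% against 3.53%. For Fscn1, Cacnb3 and Il15 the order of the Ptprc classes differed between sections. The median depth before thinning was 27166.5 to 36849 UMIs in Ptprc-free and 33165 to 44159.5 UMIs in Ptprc-positive spots. A Ptprc-free spot is not free of leukocytes, and the part of free RNA in these shares was not tested.

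The members were next counted per spot, which asks whether they lie in the same places. At full depth 878 and 894 of the CC075F1 spots and 891 and 1003 of the CC080F1 spots held 3 or more of the 8 genes, mostly by way of Fscn1, Cacnb3, Cd40 and Il15, and no spot held all 8. Thinned to 10000 UMIs, 6.24% and 2.28% of CC075F1 spots and 4.97% and 5.34% of CC080F1 spots held 3 or more. The CC075F1 mean was 0.827 times the CC080F1 mean (4.26% against 5.15%, exact two-sided permutation p = 1). CC075F1 replicate 2 was the low section, and without it the ratio was 1.21.

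Ccr7, Ccl22 and Ccl17 were followed as a group because they were the sparse members, a choice made after their values were seen. At least 2 of the 3 were found in 68 and 67 spots of the CC075F1 sections and in 30 and 82 spots of the CC080F1 sections. All 3 were found together in 10, 9, 4 and 23 spots. CC080F1 replicate 2 held the most such spots and CC080F1 replicate 1 the fewest, so the strains overlapped.

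**Figure D2:**
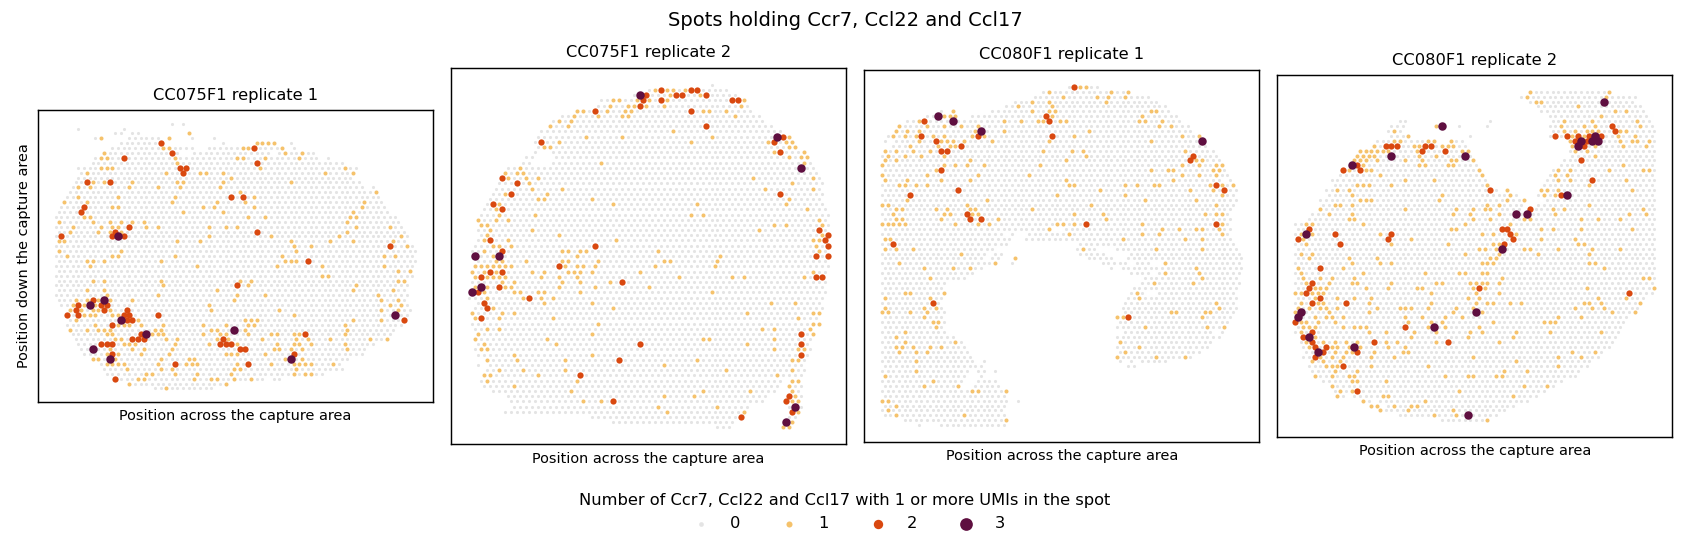
Spots of the 4 sections at their positions on the capture area (one panel per section, x and y in array units), colored by how many of Ccr7, Ccl22 and Ccl17 had 1 or more UMIs. Spots with 2 or 3 of the genes (68, 67, 30 and 82 in the panels from left to right) lie mostly along the rim in CC075F1 replicate 2, both at the rim and inside the tissue in CC080F1 replicate 2, and gather at the lower left in CC075F1 replicate 1 and the upper left in CC080F1 replicate 1.

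Sharing of spots was measured per pair as an odds ratio pooled by the Mantel-Haenszel method within 10 classes of spot depth, so that spots of like depth were compared. Spots of a section are not replicates, and these ratios are given as descriptions of the 4 sections without a test. Among the pairs with a value in all 4 sections, Ccl22 and Ccl17 shared spots most, at an odds ratio of 6.90 (geometric mean over sections, range 5.80 to 10.0), with both found in 50, 37, 18 and 37 spots. Ccr7 and Ccl22 followed at 4.52 (3.14 to 5.22) with 17, 29, 9 and 52 shared spots. From each gene's share of all spots, without regard to depth, 4.18, 6.35, 2.97 and 14.6 were expected without association. Ccr7 and Ccl17 had an odds ratio of 2.82 (1.69 to 4.02). Each of these 3 pairs was above 1 in all 4 sections.

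Cd40 was joined to the same genes more loosely. Its odds ratio was 1.85 with Ccl22 (1.38 to 2.27), 1.61 with Ccl17 (1.41 to 1.74) and 1.43 with Ccr7 (1.22 to 1.88), above 1 in all 4 sections each time. Il15 did not follow the chemokines: its odds ratio with Ccl17 was 0.805 and below 1 in all 4 sections (0.706 to 0.848), and that with Ccl22 was 0.982. The pairs of Cacnb3 with Ccr7, Ccl22, Ccl17, Cd40 and Il15 lay between 1.02 and 1.37 on average, and their sections fell on both sides of 1. Fscn1 with Il15 was at 1.58 and above 1 in all 4 sections (1.08 to 2.59). This did not hold at equal depth: thinned to 10000 UMIs, their shared spots were 0.996 times those expected without association. Fscn1 was in too many spots for a steady ratio, and with Ccl22 and Ccl17 no value over all sections could be formed.

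**Figure D3:**
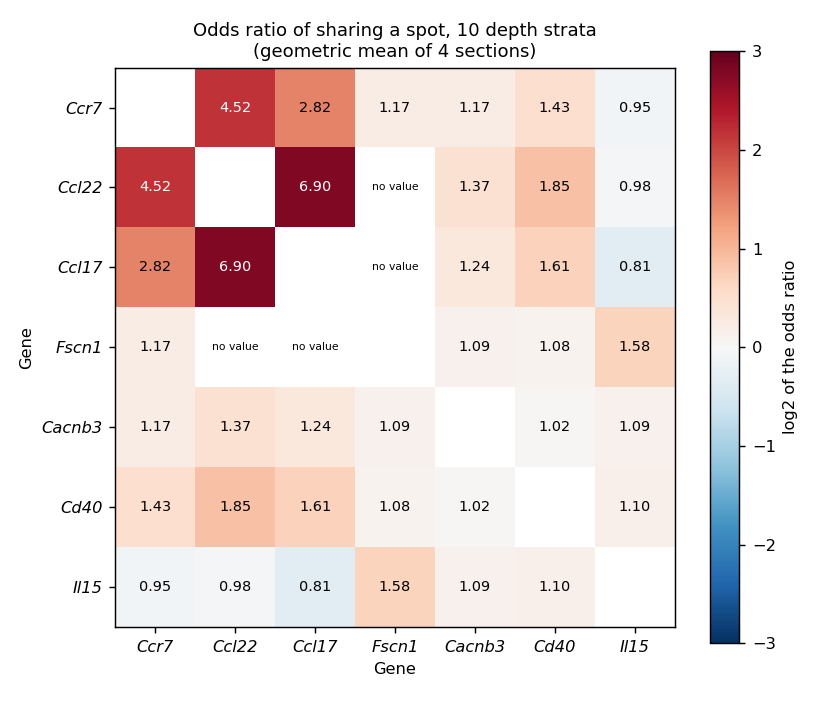
Odds ratios of sharing a spot for the pairs among 7 members (Il12b left out, with too few UMIs), as the geometric mean of 4 sections within 10 depth strata, on a log2 color scale. The block of Ccr7, Ccl22 and Ccl17 holds 2.82 to 6.90, Cd40 with each of them 1.43 to 1.85, and the remaining pairs 0.805 (Ccl17 with Il15) to 1.58 (Fscn1 with Il15). With 20 strata Fscn1 with Il15 was at 1.36, and thinned to 10000 UMIs its shared spots were 0.996 times those expected without association.

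To test the sharing with sections as replicates, UMIs were summed per section over spots with an anchor gene and over spots without it at the same depth distribution, and compared by edgeR with section as a block. In spots with Ccr7 (77, 169, 112 and 278 spots) Ccl22 was at 12.8, 7.12, 3.87 and 9.66 CPM. In depth-matched spots without Ccr7 it was at 2.03, 1.48, 0.837 and 1.24 CPM, so it was higher with Ccr7 in 4 of 4 sections. Its log2 fold change was 2.52 ± 0.19 (SE), or 5.74-fold (edgeR, adjusted p = 7.16e-10).

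Ccl17 was at 19.7, 4.38, 3.14 and 6.21 CPM in Ccr7 spots and at 4.27, 1.89, 2.25 and 1.68 CPM in matched spots. It was higher in 4 of 4 sections, most in CC075F1 replicate 1, at a log2 fold change of 1.54 ± 0.21 and an edgeR adjusted p of 9.35e-06. These 2 of 6 members passed as higher, where 5.01% of all 13759 genes did. Cd40 had a log2 fold change of 0.33 with an edgeR adjusted p of 0.0619. Cacnb3 (0.18), Fscn1 (0.01) and Il15 (-0.18) did not pass either. With interior spots alone the calls on Ccl22 (2.70) and Ccl17 (1.65) held.

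The same joint counts were read from the ligands' side. In spots with Ccl22 (147, 123, 74 and 167 spots) Ccl17 was at 28.4, 18.9, 11.8 and 10.2 CPM and in matched spots at 2.69, 2.06, 1.71 and 1.45 CPM. The log2 fold change of Ccl17 was 3.05, or 8.30-fold, that of Ccr7 was 2.43 and that of Cd40 was 0.73, and these 3 of 6 members passed as higher (6.18% of all genes did). Cd40 rose from 9.72, 9.64, 8.04 and 8.53 CPM without Ccl22 to 17.5, 17.3, 10.8 and 15.5 CPM with it. Cd40 was thus higher in spots with Ccl22 than in matched spots in all 4 sections.

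In spots with Ccl17, Ccl22 (log2 fold change 2.88), Ccr7 (1.67) and Cd40 (0.62) passed as higher, 3 of 6 members where 5.23% of all genes did. Il15 was lower in these spots, at 13.6, 8.99, 10.4 and 11.4 CPM against 16.1, 12.3, 13.3 and 13.6 CPM (log2 fold change -0.35, edgeR adjusted p = 0.0196), and 2.79% of all genes passed as lower. With a section left out the Il15 difference stayed between -0.39 and -0.30, but the call was lost each time (edgeR adjusted p of 0.0556 to 0.0919). It was also lost with DESeq2 (-0.35, adjusted p = 0.169), in interior spots (-0.34, edgeR adjusted p = 0.0709) and at 2 or more UMIs of Ccl17 (-0.44, edgeR adjusted p = 0.252). In spots with Cd40, Ccl22 (1.18), Ccl17 (0.69) and Ccr7 (0.56) passed as higher, 3 of 6 where 4.18% of all genes did. Without CC075F1 replicate 1 the calls on Ccl17 (0.44) and Ccr7 (0.46) were lost, and without CC075F1 replicate 2 that on Ccr7 (0.53). The Ccr7 call was also lost with DESeq2 (0.63, adjusted p = 0.187), in interior spots (0.48, edgeR adjusted p = 0.149) and against all spots without Cd40 (0.37, edgeR adjusted p = 0.0844).

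Cacnb3, Il15 and Fscn1 gave no such neighborhood of members. Of 6 members 0 passed in spots with Cacnb3 (0.876% of all genes did), 0 in spots with Il15 (1.66%) and 0 between the spots with the most and the least Fscn1 at equal depth (the upper and lower 25% of spots; 3.99%, a comparison added after seeing the data, since Fscn1 was in nearly every spot). DESeq2 and limma-voom also called 0 in the Cacnb3 and Il15 spots. The members with an unadjusted edgeR p under 0.05 numbered 2, 1 and 2 in the 3 comparisons. Of all genes, 11.9%, 10.4% and 18.2% had such a p. The Cacnb3 count was 1 without CC075F1 replicate 1 and 2 without CC080F1 replicate 1.

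**Figure D4:**
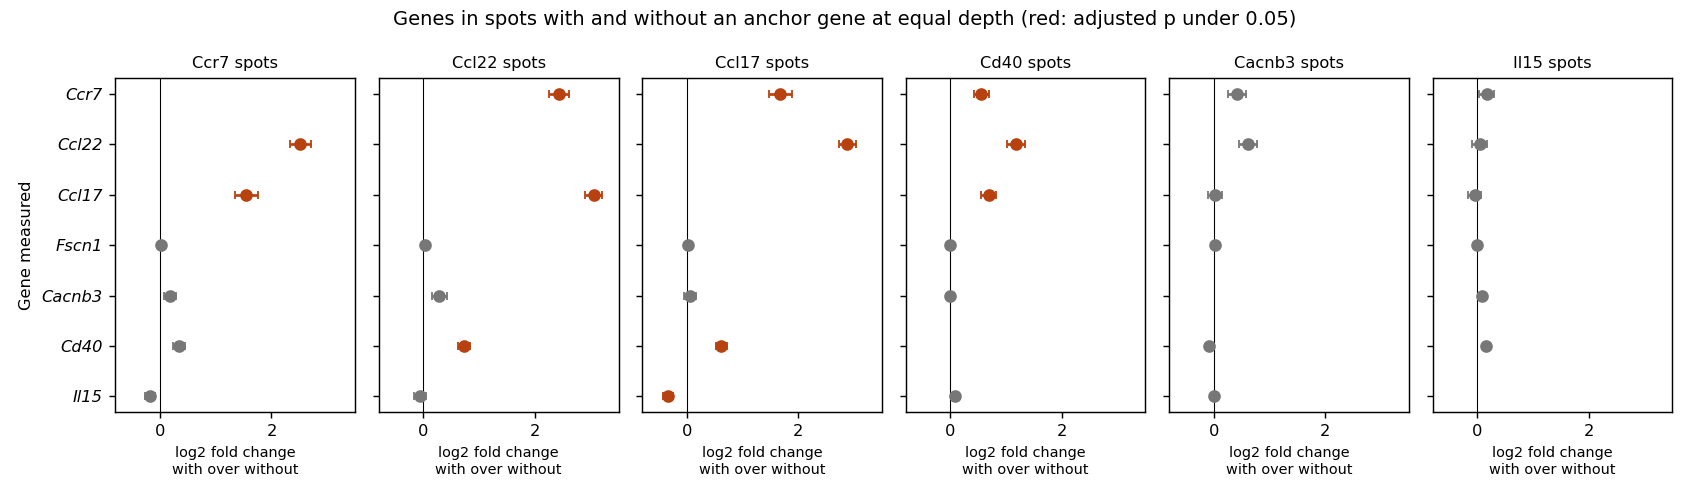
Log2 fold change of each member (rows) between spots with and without an anchor gene (one panel per anchor) at equal depth, over 4 sections. Points are edgeR estimates, bars are SE, and red marks an adjusted p under 0.05. Ccl22, Ccl17 and Ccr7 are higher in each other's spots by 1.54 to 3.05, Cd40 passes with Ccl22 and Ccl17, and no member passes in the Cacnb3 and Il15 panels.

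The genes that are known to act with the members, or to mark the same cells, were counted in the spots of Ccr7 and Ccl22. Of 7 testable partners 3 were higher in Ccr7 spots: Ccl19, a ligand of Ccr7 (log2 fold change 1.79), and the interleukin 2 and 15 receptor chains Il2rb (0.58) and Il2rg (0.50). The median of the 7 was 0.48, against -0.02 over all genes. Ccl19 was at 3.21, 1.78, 0 and 4.14 CPM with Ccr7 and at 0.898, 0.848, 0.239 and 0.627 CPM without it. Its call was lost without CC080F1 replicate 2 (1.07). Ccl19 has near-identical copies in the mouse genome, and how its reads were shared among them is uncertain.

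Of 23 testable other mature dendritic cell genes, 8 were higher and 0 lower in Ccr7 spots (median 0.23). The largest change was that of Bcl2l14, a member of the Bcl2 family (2.81), which rested on 5, 6, 7 and 16 UMIs in Ccr7 spots, or 2.01, 0.822, 1.69 and 1.58 CPM against 0.136, 0.180, 0.0797 and 0.313 CPM in matched spots. Il4i1, a secreted amino acid oxidase (1.25), and Serpinb6b, a serine protease inhibitor (1.01), were also called, and both calls were lost without CC080F1 replicate 2 (0.80 and 0.48). In Ccl22 spots 14 of 23 were higher and 0 lower (median 0.45), among them Bcl2l14 (2.69), Il4i1 (2.26), the cytokine signaling inhibitor Socs2 (1.44) and Apol7c (1.71), and each of these held under every leave-one-out fit. The costimulatory gene Cd80 (1.28) and the PD-1 ligands Pdcd1lg2 (1.34) and Cd274 (0.50) were called in Ccl22 spots as well, but lost without CC075F1 replicate 1 or without CC080F1 replicate 2.

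Markers of conventional dendritic cells moved with both. In Ccr7 spots 4 of 5 cDC2 genes, 2 of 8 cDC1 genes and 3 of 5 genes shared by conventional dendritic cells were higher. Flt3, the growth factor receptor of the lineage, had a log2 fold change of 2.18 (3, 4, 5 and 29 UMIs in Ccr7 spots), lost without CC080F1 replicate 2, while Zbtb46, a transcription factor of the lineage, did not pass. The cDC2 lectin Mgl2 was at 32.5, 3.15, 7.98 and 10.4 CPM with Ccr7 and at 11.3, 2.83, 5.62 and 4.87 CPM without it (0.93). In Ccl22 spots all 4 testable cDC2 genes were higher, among them Irf4 (1.97), a transcription factor of this subset, and Mgl2 (1.06).

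Genes of other cell types were also higher in these spots. In Ccr7 spots 4 of 7 T cell genes (Cd3g 0.72, Cd3d 0.68), 4 of 4 endothelial genes (Kdr 0.62), 3 of 4 fibroblast genes (Bgn 1.43, Col1a1 1.38, Postn 1.28), 4 of 4 interferon-induced genes (Cxcl9 0.70) and 4 of 4 skeletal muscle genes passed as higher, while 1 of 8 macrophage genes did. The muscle genes came mostly from CC075F1 replicate 2, with Acta1 at 0, 250, 5.32 and 0 CPM in the Ccr7 spots of the 4 sections. Col1a1, a collagen of fibroblasts, was at 81.4, 473, 74.0 and 291 CPM with Ccr7 and at 40.2, 108, 54.7 and 99.96 CPM without it. Foxp3, of regulatory T cells, was higher in Ccl22 spots (1.75), at 2.88, 1.77, 1.44 and 2.65 CPM against 0.789, 0.425, 0.330 and 0.924 CPM. Foxp3 was also called in Ccr7 spots (1.53), and in Ccl17 spots it did not pass (1.00, edgeR adjusted p = 0.0755). The part of fibroblast-rich places in the sharing of the 3 genes was not tested.

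Among all genes, those outside the lists with the largest rise in Ccr7 spots were Eln (log2 fold change 1.97), Serpina3n (1.97), Ccn5 (1.95), Prelp (1.93) and Srpx2 (1.79). Eln and Prelp encode elastin and a small proteoglycan of the connective tissue matrix. Hspa1a, a heat shock chaperone (-1.20), fell most. Gzmg, a granzyme gene, also fell (-0.80), by between 0.48 without CC075F1 replicate 2 and 1.64 on the log2 scale without CC080F1 replicate 2. In Ccl22 spots Ccl11 (2.19), Ltbp2 (2.17), Srpx2 (2.01), Svep1 (1.91) and Serpina3n (1.84) rose most, and in Ccl17 spots Ccl11 (2.09), Mmp3 (1.80), Srpx2 (1.79), Lrrc15 (1.77) and Ltbp2 (1.72). Ccl11 encodes eotaxin, and Lrrc15 is a gene of activated fibroblasts.

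The anchors Cd40, Cacnb3, Il15 and Fscn1 had other companions. Serpina3f (0.97), Lrg1 (0.90) and Serpina3g (0.83) led in Cd40 spots, where 4 of 4 interferon-induced genes were higher (Cxcl9 0.67, Cxcl10 0.64) and 7 of 21 other mature dendritic cell genes. In Il15 spots the interferon-induced genes Rsad2 (0.49), Ifit3b (0.47), Ifit3 (0.47) and Cmpk2 (0.45) led, and 3 of 4 fibroblast genes were lower (Col1a1 -0.31). In Cacnb3 spots 0 of 21 other mature dendritic cell genes passed, while 4 of 4 fibroblast genes (median log2 fold change 0.34) and 4 of 4 skeletal muscle genes (0.66) were higher. The same 4 muscle genes were lower in Il15 spots (median -0.60). Acta1, the actin of skeletal muscle, was at 77.05 CPM with and 45.5 CPM without Cacnb3 in CC075F1 replicate 2, at 34.8 and 56.8 CPM with and without Il15 there, and at most at 6.03 CPM in the other sections. Calls on fibroblast genes in Cacnb3 spots for Col1a1, Bgn and Postn were lost without CC075F1 replicate 2 and without CC080F1 replicate 2. Spots with the most Fscn1 had higher Cpxm2 (1.17), Itm2a (1.07) and Cthrc1 (1.01), and 4 of 4 fibroblast genes (median 0.61) and 3 of 4 endothelial genes (median 0.31) were higher there. The part of these other cell types in the Cacnb3, Il15 and Fscn1 comparisons was not tested.

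The places of these spots were described by their neighbors and by their distance from the edge of the tissue. Moran's I, which is 0 for a random layout and grows as like values lie side by side, was 0.176, 0.143, 0.106 and 0.132 for Ccl17 and 0.108, 0.118, 0.041 and 0.119 for Ccl22. For Ccr7 it was 0.015, 0.095, 0.044 and 0.138, lowest in CC075F1 replicate 1, which also had the fewest Ccr7 UMIs. All were below that of Col1a1 (0.232 to 0.551), a gene with far more UMIs. The part of sparse counts in this order was not tested. Ccl22 in spots that touched a Ccr7 spot without holding Ccr7 was at 5.33, 2.05, 1.64 and 2.05 CPM, and in spots farther away at 1.36, 0.636, 0.618 and 0.876 CPM. The level of Ccl22 was thus highest in the Ccr7 spots, lower in their neighbors and lowest in the rest in all 4 sections. Ccl17 had the same order in 3 sections, but in CC080F1 replicate 1 it was at 3.14 CPM in Ccr7 spots, 3.78 CPM in their neighbors and 1.81 CPM farther away.

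Edge spots were those within 3 grid steps of an off-tissue position (568, 665, 880 and 648 spots). Gaps enclosed by tissue counted as off-tissue. With the outer boundary only, 552, 639, 729 and 640 spots were edge spots. Ccr7 was at 2.05, 5.09, 1.44 and 7.99 CPM at the edge and at 0.911, 0.887, 1.30 and 2.36 CPM in the interior, or 2.25, 5.74, 1.11 and 3.38 times as high. Ccl22 was 2.06, 10.9, 1.35 and 2.79 times as high at the edge, and Ccl17 2.83, 18.1, 1.43 and 2.76 times. All 3 were higher at the edge in 4 of 4 sections, most in CC075F1 replicate 2 and least in CC080F1 replicate 1.

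Farther inside, the sections differed. Ccl17 in CC075F1 replicate 2 went from 7.82 CPM at 1 to 3 steps to 0.982 at 4 to 6, 0.502 at 7 to 10 and 0.229 CPM beyond 10 steps. In CC075F1 replicate 1 it was at 10.5, 5.15, 7.51 and 1.23 CPM over the same bins, and in CC080F1 replicate 1 at 2.87, 2.51, 1.37 and 2.21 CPM, neither of which is a steady fall. In CC080F1 replicate 2 it fell through 4.36, 2.75, 2.04 and 0.864 CPM. Ccr7 fell from bin to bin in 3 sections, and in CC080F1 replicate 1 it was at 1.44, 1.50, 1.21 and 1.13 CPM. Of the spots with 2 or more of Ccr7, Ccl22 and Ccl17, 23.5%, 70.1%, 33.3% and 46.3% lay at the edge, where 21.0%, 20.3%, 31.6% and 20.4% of all spots lay. The share at the edge was thus above that of all spots by a wide margin in CC075F1 replicate 2 and CC080F1 replicate 2. In the latter, however, only 38 of 82 such spots were edge spots. In the other sections the share was above that of all spots by little.

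**Figure D5:**
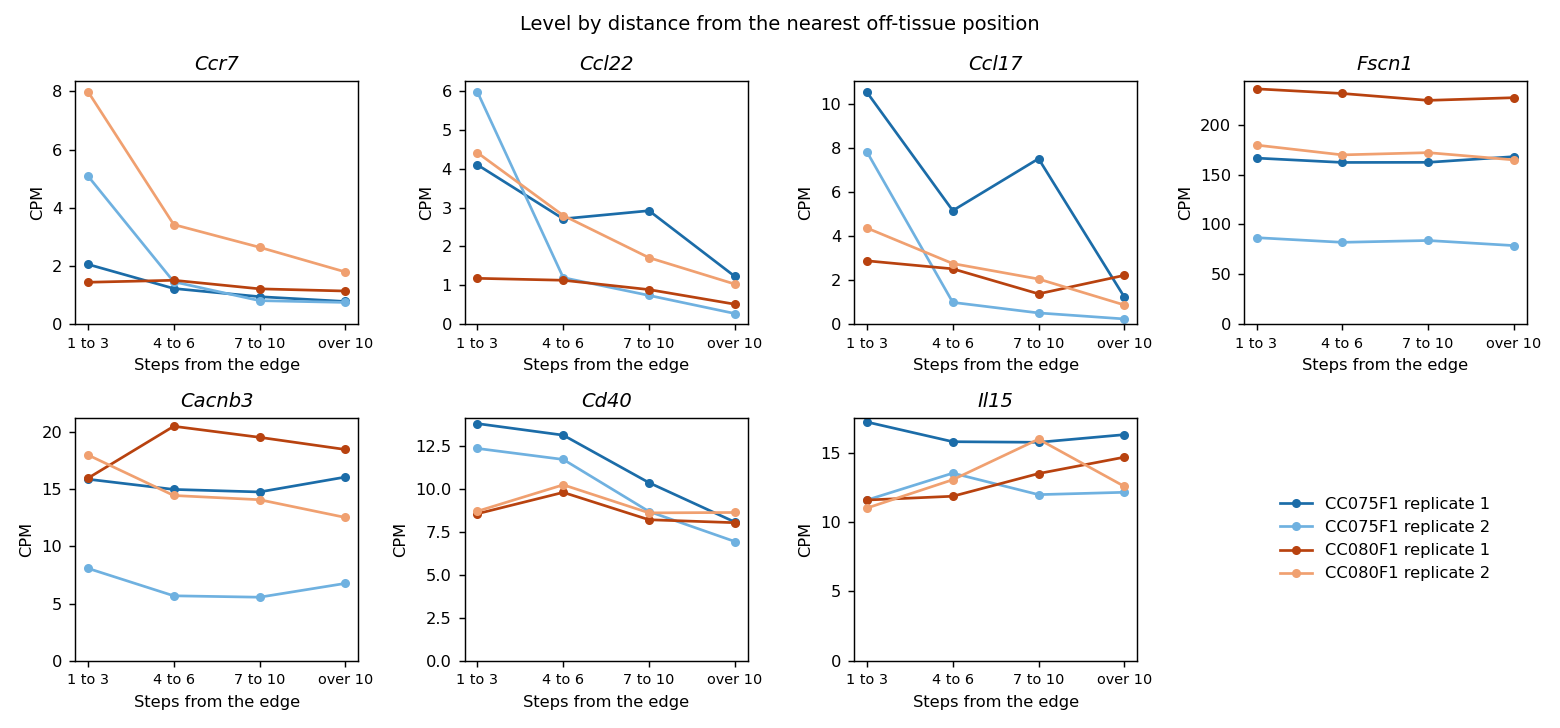
Level of 7 members by distance from the nearest off-tissue position, in bins of grid steps on the x axis and CPM of the summed spots on the y axis from 0, with one line per section. Ccr7, Ccl22 and Ccl17 are highest in the outermost bin in 11 of the 12 lines, while Fscn1 stays within 78.7 to 86.7 CPM in CC075F1 replicate 2, 162 to 168 in CC075F1 replicate 1, 225 to 236 in CC080F1 replicate 1 and 165 to 180 CPM in CC080F1 replicate 2.

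In the edgeR comparison of edge and interior with section as a block, 0 of 7 members passed, where 0.871% of all 14345 genes did. The unadjusted edgeR p was under 0.05 for 4 of 7 members and for 18.2% of all genes. DESeq2 called 2 members (Ccr7 and Ccl22) and limma-voom 1 (Ccr7). The log2 fold changes were 1.40 ± 0.33 for Ccr7 (edgeR adjusted p = 0.0915), 1.57 ± 0.41 for Ccl22 (0.117) and 1.79 ± 0.48 for Ccl17 (0.120). Without CC080F1 replicate 1, the section with the smallest differences, all 3 passed, at log2 fold changes of 1.80, 1.91 and 2.21. With any other section left out, 0 members passed. Calls over all genes moved between fits as well. Cd40 (0.19), Cacnb3 (0.06), Fscn1 (0.00) and Il15 (-0.19) did not pass. Among the listed genes, Col1a1 (2.12), Postn (1.96), the lymphatic and macrophage gene Lyve1 (1.98), the dendritic cell and macrophage integrin Itgax (0.60) and 3 of 4 neutrophil genes were higher at the edge. Col1a1 was 4.51, 8.73, 1.67 and 6.02 times as high there, with the smallest ratio in the same section as for the 3 genes. Edge spots were shallower, with medians of 18031.5, 25171, 30120 and 26854.5 UMIs against 33591.5, 46146, 34844 and 37003 in the interior. The part of matrix-rich tissue or of depth in the edge levels was not tested.

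The strains were compared in their edge difference and in their Ccr7 spots by an interaction term. For the edge, 0 of 7 members passed (0.106% of all genes did), and for Ccr7 spots 0 of 6 (0.0207%). DESeq2 and limma-voom called 0 in both. The unadjusted edgeR p was under 0.05 for 2 members in the first (8.5% of all genes) and 0 in the second (4.47%). Ccl17 had an interaction of 1.58 (edgeR adjusted p = 0.583), larger in CC075F1 by way of its replicate 2. That of Cd40 was 0.43 with an edgeR adjusted p of 0.483. The Ccl17 interaction was 2.94 without CC075F1 replicate 1 and 2.09 without CC080F1 replicate 2. It was 1.10 without CC080F1 replicate 1 and 0.44 without CC075F1 replicate 2. Each of these fits leaves a single section in a strain.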

How the data were processed

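The 4 sections were deposited as raw UMI counts per gene and spot, which the authors made with Space Ranger 1.3.1 (per the file headers) against GRCm38/mm10. The submitters' notes also name Seurat 5.0.1, and values made with it were not used. No count was normalized before deposit. Only spots over tissue were used, and doublets were not called, since a spot can hold several cells.

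UMIs were summed per section and spot class and tested with edgeR 4.0.16 (TMM, filterByExpr, quasi-likelihood test, Benjamini-Hochberg over all genes, threshold 0.05) in R 4.3.3. DESeq2 1.42.0, limma 3.58.1 (voom), other scalings, no filter, other edge definitions, other spot sets and leaving out each section were the alternatives. For an anchor gene, spots without it were drawn in the same proportion in each of 10 depth classes. Il12b was no anchor, with fewer than 20 positive spots. Shares were thinned to 10000 UMIs over 20 draws. Strain shares and levels were compared by an exact permutation test over sections. CPM was computed here from the counts, and Moran's I used log2(CPM + 1) over the 6 nearest spots. The 95% intervals cover counting error only. The labels call the sections biological replicates. In the strain comparisons and the interaction terms, p-values therefore rest on the spread between 2 tumors per strain. With section as a block, they rest on how the difference within a section varied across the sections.

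The members, gene lists and tests were chosen with earlier results of these data known. Genes outside the lists were named by size: up to 5 risen and 3 fallen genes per anchor that passed, moved the same way in all 4 sections and had a mean of 2 CPM or more. Gene positions are from GENCODE vM21 and promoters from RefSeq, whose table had entries for Ccl22, Ccl17, Fscn1, Il12b and Cacnb3. The fits were tested on simulated counts with known changes. The strain contrast was coded as CC075F1 over CC080F1.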

Additional observations from a re-analysis of the deposited data

Results flagged for a closer look

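Cd40 at the edge was singled out because the sections of the strains went opposite ways. It was 1.42 and 1.50 times as high at the edge as in the interior in the CC075F1 sections, and 0.980 and 0.973 times in the CC080F1 sections. The strain difference of the log2 ratio was 0.43, and edgeR's interaction test did not pass (adjusted p = 0.483 over all genes). Its unadjusted p was 0.0203, and 8.5% of all genes had one under 0.05. As Cd40 was picked by this same pattern, the unadjusted p is no separate test of it. Over the alternatives the difference ran from 0.37 to 0.58 and passed in none of them.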

How the results depend on the processing

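The members' calls at the edge depended most on the processing. Of 7 members 0 passed in the reported fit, against 2 with DESeq2, 1 with limma-voom, 3 with no filter on low counts, and 0 to 3 when a section was left out (3 without CC080F1 replicate 1). For the strain difference at the edge, the count was 1 with no filter, by way of Ccl17. With a section left out (an addition made after seeing the data) the Ccl17 interaction ran from 0.44 to 2.94, with a single section left in a strain. The 2 calls in Ccr7 spots (Ccl22 and Ccl17) held under all 14 alternatives with Ccr7 as the anchor, 3 of which added a call (Cd40 with library size alone and at 2 or more UMIs, Cacnb3 without CC080F1 replicate 1), and with Fscn1 as the anchor the count was 0. The cause of these changes was not tested. The ratio of spots with 3 or more members ranged from 0.442 to 1.21 with a section left out, and that of spots with 2 or more of Ccr7, Ccl22 and Ccl17 (added after seeing the data, 1.19) from 0.719 to 3.51.

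Signs turned for the following log2 differences. Fscn1 at the edge (0.0031) was -0.0020 with DESeq2, -0.0028 with median-ratio size factors, -0.031 with no filter, -0.0099 at 5 steps, -0.00077 with the outer boundary only, -0.0015 in spots of 10000 or more UMIs, and -0.039 to 0.038 with a section left out. Cacnb3 at the edge ranged from -0.073 to 0.20. Fscn1 in Ccr7 spots was -0.020 with no filter, -0.024 at 2 or more UMIs, -0.018 in interior spots and -0.0061 to 0.033 with a section left out. Il15 in Ccr7 spots (-0.18) was 0.085 at 2 or more UMIs. Tnnc2, a muscle gene, in Cacnb3 spots (0.72) was -0.17 in interior spots and lost its call without CC075F1 replicate 2 (0.47). Between strains, leaving out a section moved Ccr7 from -1.09 to 0.35, Ccl22 from -0.0051 to 1.21 and Ccl17 from -0.034 to 1.18. The ratio of shares of spots ranged from 0.872 to 1.73 for Ccl22 and from 0.673 to 1.59 for Ccl17.

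Counts over all genes moved by more than 1.5 times. Genes called between strains numbered 14 and ranged from 11 to 480, at the edge 125 (1 to 854), for strain by edge 16 (1 to 532), for strain by Ccr7 spots 3 (0 to 241) and in Ccr7 spots 945 (426 to 1269). With the replicate number as a replicate block, 0 members and 287 genes were called between strains. The numbers are not stated to pair the tumors: same-numbered sections deviated from their strain means with a correlation of 0.35, from 2 pairs, and share only a number. Il12b had too few UMIs to be tested at this depth.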

Other observations

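Between strains, 0 of 24 other mature dendritic cell genes passed edgeR's test, and their median log2 fold change was 0.07 (CC075F1 over CC080F1), against -0.02 over all genes. Of 8 cDC1 genes 0 passed, with a median of 0.76, and 7 of 8 were higher in CC075F1. Batf3, a transcription factor of cDC1, was at 9.15 and 7.31 CPM in the CC075F1 sections. Both values lay above those of CC080F1, whose mean was 3.53 ± 0.552 CPM (SD, n = 2). The CPM of Clec9a, Cadm1 and Xcr1 separated the same way, that of Tlr3 the opposite way, and Irf8, Itgae and Wdfy4 overlapped. With n = 2 per strain the exact permutation test cannot pass at any separation, and the share of all genes that separate was not computed. No conclusion is therefore drawn from the separation of Batf3. Some other lists also leaned toward CC075F1. Of 7 T cell genes 7 were higher in CC075F1 (median 1.80) and 1 passed (Cd3g, a log2 fold change of 2.42). Of 4 interferon-induced genes 4 were higher (median 1.43) and 1 passed (Ido1, a log2 fold change of 4.19). Of 8 macrophage genes 7 were higher (median 0.53) and 0 passed. Further lists leaned the other way. Of 5 genes shared by conventional dendritic cells 2 were higher in CC075F1 (median -0.14), and of 5 plasmacytoid dendritic cell genes 2 (-0.19). Of 4 endothelial genes 1 was higher (-0.54), of 2 lymphatic genes 0 (-1.42) and of 4 adipocyte genes 0 (-2.62).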
